A study of Drosophila melanogaster with 8 samples.

Results

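The protein-coding genes for the large subunit of the cytosolic ribosome were described in exosomes released by Drosophila S2 cells and in the cells themselves. Members were the genes whose symbol, in the deposited table or in the current Release 6 annotation, consists of RpL with a number and at most 1 letter, or of RpLP with 0, 1 or 2. RpL10 (CG17521, also called Qm) and RpL10Ab (CG7283), which is named as a member although its symbol has 2 letters after the number, were included. This gave 49 genes of 14012 in the gene table, and 48 match the symbol pattern alone. They lie on 2L (12 genes), 2R (12), 3L (10), 3R (9) and X (6). The symbol RpL37a stands in the deposited table for CG9091, which Release 6 calls RpL37-1, and also for a transcript of CG5827. CG5827 is called RpL37A here, as in Release 6, and genes were kept apart by their CG identifiers. The gene qm of the table (CG8593) is another gene and was not used.

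The study sequenced polyadenylated RNA of exosomes, vesicles of endosomal origin that cells secrete, and of their parent cells, to learn which RNAs exosomes carry. S2 is an established line from fly embryos that resembles plasmatocytes, the macrophages of the fly, and the labels name no added genotype and no treatment for either group. Each group held 4 libraries, numbered 1 to 4, and the design text speaks of 4 separate experiments. Nothing says whether the cultures were separate, so a p-value here reflects how far these libraries scatter, and that scatter may be technical.

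The large subunit joins amino acids into protein at its peptidyl transferase centre, passes the new chain out through an exit tunnel, and recruits translation factors with a stalk of acidic P proteins. Its proteins are made in step with ribosomal RNA in the nucleolus, and in growing cells their mRNAs are among the most abundant of all. In flies many of these genes were found as Minute mutations, in which losing a copy slows growth.

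Values are FPKM, fragments normalised to transcript length and to library size, as the authors deposited them. The summed FPKM of a library ranged over 12.5-fold, so FPKM itself is not on 1 scale across libraries. By the steps between low values, the gene values of exosome replicate 2 rested on about 100000 fragments, and those of exosome replicates 3 and 4 and cell replicates 2, 3 and 4 on about 1900000, 2100000, 2000000, 2300000 and 6100000. Exosome replicate 1 and cell replicate 1 showed no such step, and their depth is unknown. Of 11 plasmatocyte (fly macrophage) marker genes in the table, 11 were above 0 in the cells, with summed levels of 22625 to 49098 ppm (parts per 1000000 of the FPKM summed over 2L, 2R and 3L), against at most 15.2 for neuron and 30.2 for muscle markers, and Mst84Da, aly, twe, nos, up and Lsp2 were at 0 in every cell library. In exosomes the plasmatocyte sum was 13256 to 40337 ppm, with 11 of 11 above 0 in at least 1 library and 4 at 0 in exosome replicate 1. Of the 11, 9 exceeded an FPKM of 1 in 4 or more of the 8 libraries. The neuron sum there was 1.09 to 17.4 ppm with 2 of 4 above 0, the muscle sum 0 to 55.1, the fat body sum 0 to 15.5 and the germline and testis sum 0 to 14.6. The part of such RNA in the results was not tested.

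Exosome replicate 1 listed whole chromosome arms at 0, and this decides what can be said of the members. Among 890 genes with a median FPKM above 20 in the other 7 libraries, 359 of 359 on 3R and X stood at 0 in exosome replicate 1, against 3 of 505 on 2L, 2R and 3L. In the other 7 libraries, at most 2.76% of such genes on 3R and 3.52% on X were listed at 0. The plot of zeros by arm shows this split.

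**Figure D1:**
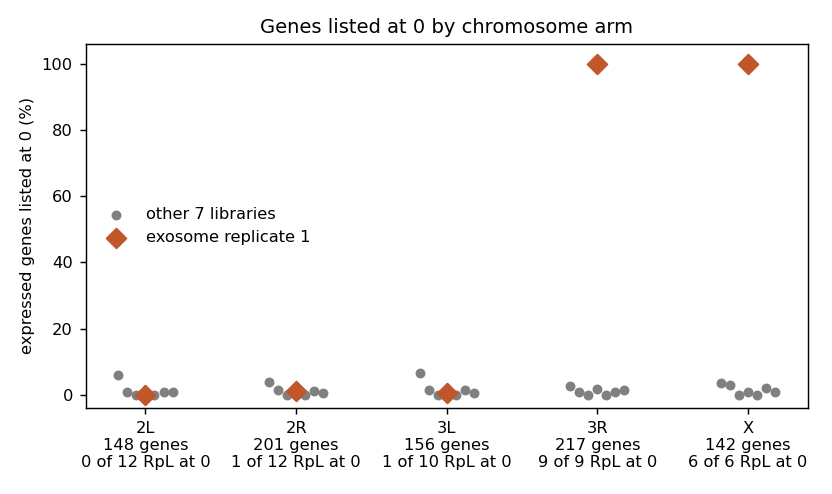
Share of expressed genes (median FPKM above 20 in the 7 other libraries) listed at 0, in percent, on 5 chromosome arms. The diamond is exosome replicate 1, at 100% on 3R and X, and grey points are the other 7 libraries, at no more than 6.41% on any arm.

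In exosome replicate 1, 17 of the 49 members were therefore at 0 and 32 were above it. On 3R these were RpL3, RpL4, RpL6, RpL13A, RpL27, RpL32, RpL34a, RpL34b and RpL35A, and on X they were RpL7A, RpL17, RpL22, RpL35, RpL36 and RpL37a. The other two were RpL15 on 3L, which had 3510 to 9098 ppm in the other 7 libraries, and RpL37b on 2R, which was at 0 in 7 of 8 libraries. A zero in exosome replicate 1 on 3R or X is thus shared with the expressed genes around it and says nothing particular about a ribosomal protein gene. Levels are given below in ppm, which is FPKM in parts per 1000000 of the FPKM summed over genes on 2L, 2R and 3L, a per-length scale that these arms allow in all 8 libraries. For the 15 members on 3R and X, and for RpL15, exosome values are those of replicates 2 to 4. RpL15 was left out there because it was listed at 0, although replicate 1 covers 3L. Its 0 is kept in the shares, the ranks and the limma fit in ppm.

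As a group the large-subunit mRNAs took shares of exosome and of cell RNA that overlapped. On 2L, 2R and 3L, the 34 members there took 46.9, 40.2, 15.6 and 39.7% of the summed FPKM of exosome replicates 1 to 4, and their share of cell replicates 1 to 4 was 29.0, 42.3, 25.5 and 38.7%. Exosomes averaged 35.6% ± 13.7 (SD, n = 4) and cells 33.9% ± 7.92 (SD, n = 4), a difference of 1.72 percentage points that is smaller than either SD. It was -2.05 points without exosome replicate 1 and 8.38 points without exosome replicate 3, so its sign rests on single libraries. Exosome replicate 3 was the lowest of the 8 libraries and exosome replicate 1 the highest. Fewer cells or vesicles and less RNA in each cannot be told apart in such libraries.

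In exosome replicate 3 a single mRNA stood beside this low share. Arc1, whose protein forms capsid-like particles that carry its own mRNA between cells, took 28.1% of the summed FPKM on these arms there, 2.25, 6.54 and 3.64% in exosome replicates 1, 2 and 4, and 0.102 to 1.02% in cells. With Arc1 and Dro, an antimicrobial peptide gene, left out of the sum, the members' share was 47.9, 43.4, 22.8 and 41.5% for exosomes, compared with 29.0, 42.5, 27.6 and 39.0% for cells. Exosome replicate 3 remained the lowest on that sum as well. Over all arms, where exosome replicate 1 lacks 3R and X, the share was 46.7, 26.6, 11.2 and 21.8% for exosomes, compared with 24.7, 30.1, 19.1 and 13.3% for cells.

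The small-subunit share was likewise highest in exosome replicate 1 and lowest in exosome replicate 3. The 15 small-subunit genes on the same arms took 25.1, 15.1, 5.52 and 13.9% of the exosome sums, compared with 14.4, 16.2, 8.01 and 13.0% of the cell sums. The ratio of the large-subunit sum to the small-subunit sum was 1.87, 2.66, 2.82 and 2.85 for exosomes, compared with 2.01, 2.61, 3.18 and 2.98 for cells. Both libraries numbered 1 had the lowest ratio of their group, and the ratio averaged 2.55 ± 0.464 (SD, n = 4) for exosomes and 2.69 ± 0.515 (SD, n = 4) for cells.

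**Figure D2:**
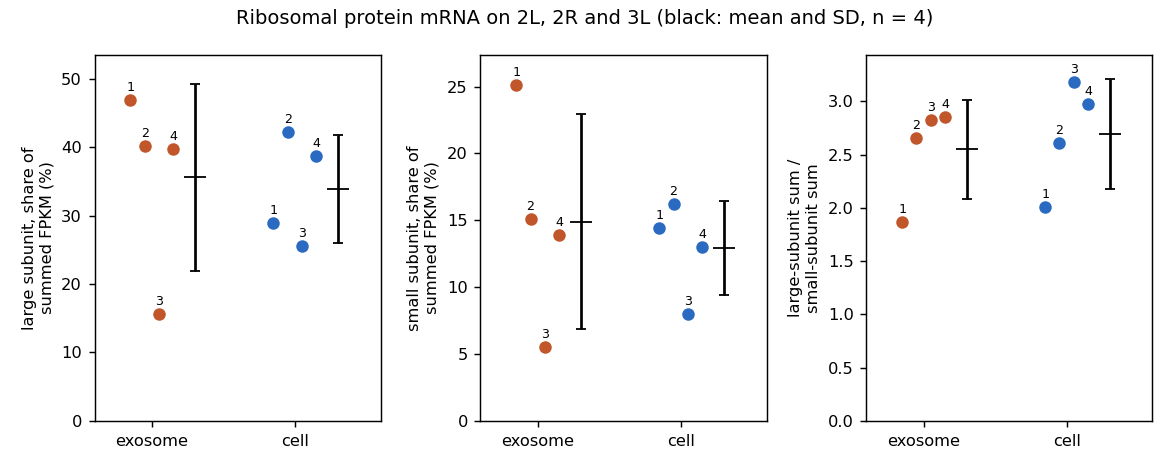
Share of the FPKM summed over 2L, 2R and 3L taken by 34 large-subunit genes (left) and 15 small-subunit genes (middle), in percent, and the ratio of the sums (right). Each numbered point is a library, and the black bar is the mean with its SD over 4 libraries. The large-subunit share overlaps between groups, at 15.6 to 46.9% in exosomes and 25.5 to 42.3% in cells.

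The rank of the genes within a library differed even less between groups. The median member stood at percentile 99.6 to 99.7 of all 14012 genes in each of the 8 libraries, with genes at 0 in exosome replicate 1 included. Among the 7609 genes on 2L, 2R and 3L, the median rank of the members was 30.5, 32.5, 31 and 24.5 for exosome replicates 1 to 4, compared with 27.5, 29.5, 33.5 and 28.5 for cell replicates 1 to 4. Of the 34 members on these arms, 32, 33, 32 and 33 were among the 100 highest genes in exosomes and 33, 33, 30 and 33 in cells. The 20 highest genes included 10 to 14 members in exosomes and 11 to 13 in cells.

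RpL41, RpLP2, RpL39, RpL29 and RpLP1 had the highest mean level in ppm in exosomes. With exosome replicate 1 left out for every member, RpLP1 ranked 8 and RpL23 entered at 5, and the 5 were then those that were highest in cells. RpL41, the shortest member with 25 codons, had 34437, 57958, 15429 and 46727 ppm in exosome replicates 1 to 4 and 12432, 54646, 27896 and 50224 in cell replicates 1 to 4. It was the highest or second highest gene on these arms in exosome replicates 1, 2 and 4 and in cell replicates 2, 3 and 4, and ranked 4 in exosome replicate 3 and 6 in cell replicate 1. RpL39, a short protein that lines the exit tunnel, had 19415, 45316, 3664 and 24813 ppm in exosomes and 7185, 36047, 11958 and 24574 in cells. Both genes were low in the same 2 places, exosome replicate 3 and cell replicate 1. RpL29, a small basic surface protein, had 23095, 21385, 8010 and 25419 ppm in exosomes and 12377, 17611, 13727 and 27528 in cells, again with exosome replicate 3 lowest. The neighbours RpL39, RpLP2 and RpL29 in this order do not differ beyond their spread, with means of 23302 ± 17201, 22854 ± 12003 and 19477 ± 7822 ppm (SD, n = 4) in exosomes. Very short transcripts are also where a level per length depends most on the length that the authors' software assumed.

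At the other end, RpL37b, RpL34a, RpL22, RpL3 and RpLP0 had the lowest mean level in exosomes. In cells RpLP0 was not among the lowest 5, and RpL18 was. RpL3, a core protein near the peptidyl transferase centre and the longest member, had 2257, 1440 and 3525 ppm in exosome replicates 2 to 4 and 8545, 3250, 1289 and 3179 in cell replicates 1 to 4. Cell replicate 1 was the high one, and the other 3 cell libraries lay within or next to the exosome range.

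Across the 32 members above 0 in exosome replicate 1, shorter coding sequences went with higher levels in 6 of the 8 libraries. Spearman's rho between coding codons and level came to -0.58, -0.33 and -0.49 for exosome replicates 2 to 4, and to -0.47, -0.43 and -0.46 for cell replicates 2 to 4. It was -0.15 in exosome replicate 1 and 0.05 in cell replicate 1. Genes of 1 library share its depth and processing, so these values are descriptions. Against the log2 difference between exosome and cell, rho was -0.09 (32 genes).

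**Figure D3:**
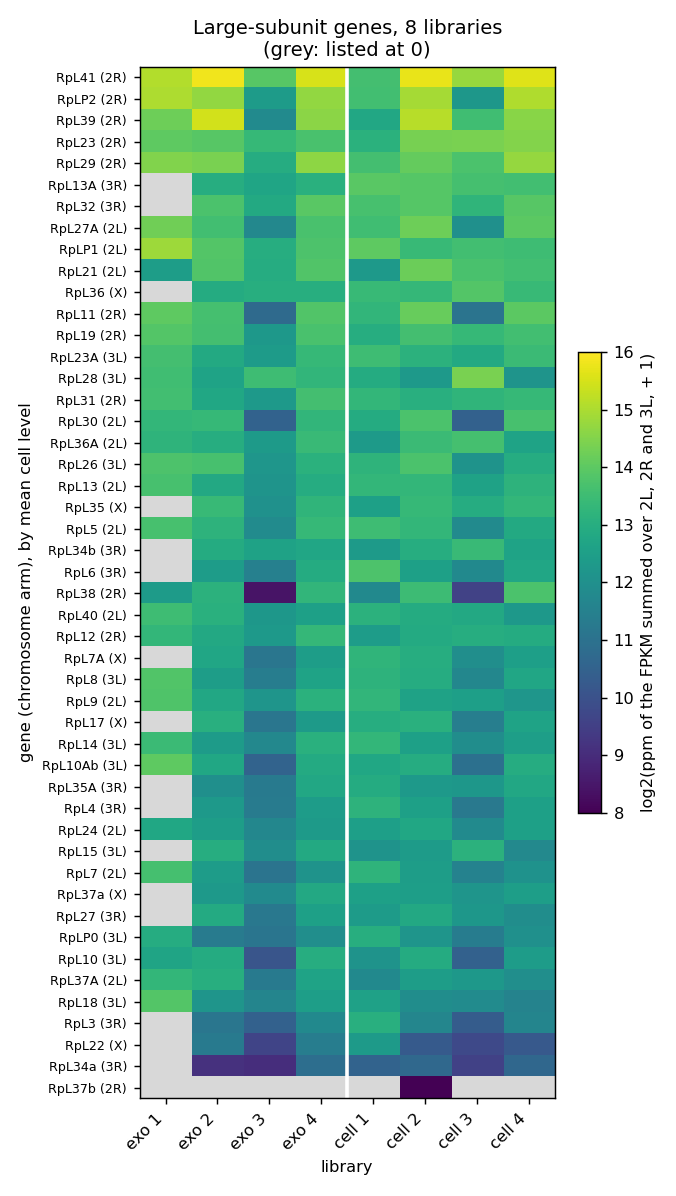
Level of 48 large-subunit genes in 8 libraries, as log2(ppm + 1), ordered by their mean in cells, with the chromosome arm in parentheses. Grey marks a value of 0. The grey cells of exosome replicate 1 are 3R and X genes with RpL15 and RpL37b, and dark cells for RpL38 appear in both libraries numbered 3.

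Around the peptidyl transferase centre, RpL8 had 14482, 5607, 2670 and 6366 ppm in exosome replicates 1 to 4 and 9292, 7887, 3329 and 6799 ppm in cell replicates 1 to 4. RpL10, which helps position transfer RNA and is among the last proteins added to the subunit, had 6579, 7767, 1111 and 8077 ppm in exosomes and 4405, 7792, 1425 and 5433 in cells. Both had the lowest value of each group in its replicate 3. RpL4, which reaches into the tunnel wall, had 5161, 2548 and 5432 ppm in exosome replicates 2 to 4 and 9185, 5961, 2398 and 5976 in cells, with the same libraries lowest.

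RpL5 and RpL11 join 5S ribosomal RNA as a unit that is built into the subunit together, and in mammals the same unit binds the p53 regulator MDM2. RpL5 had 13107, 9280, 3715 and 10420 ppm in exosomes and 11627, 10099, 3637 and 7411 in cells. RpL11 had 16439, 12805, 1759 and 14464 ppm in exosomes and 9919, 17895, 2174 and 16248 in cells. The pair did not keep 1 proportion across libraries. RpL11 was the lower of the pair in both libraries numbered 3 and in cell replicate 1, and the higher in the other 5 libraries.

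The stalk consists of RpLP0 at its base, dimers of RpLP1 and RpLP2, and RpL12 beside it. RpLP0 had 7952, 2568, 2215 and 3985 ppm in exosomes and 8195, 4636, 2625 and 4105 in cells. RpLP1 had 29007, 14779, 8050 and 13934 ppm in exosomes and 16690, 10735, 12247 and 11746 in cells, and RpLP2 had 32821, 26486, 5397 and 26712 ppm in exosomes and 12283, 31281, 4818 and 34196 in cells. RpLP2 was above RpLP1 in exosome replicates 1, 2 and 4 and in cell replicates 2 and 4, and below it in both libraries numbered 3 and in cell replicate 1. RpL12 varied less, with 10025, 7308, 5066 and 10187 ppm in exosomes and 5428, 7664, 8101 and 7797 in cells. For all 4 proteins the groups overlapped. Between libraries of the same number, RpLP0 was lower in the exosome library each time, and RpLP1, RpLP2 and RpL12 varied in direction. This was read from the values.

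Proteins around the exit of the tunnel, where chaperones and the signal recognition particle bind, gave overlapping values as well. RpL23A had 12578, 7382, 5393 and 10568 ppm in exosomes and 11778, 9032, 7355 and 11215 in cells. RpL19 had 14779, 12623, 4958 and 13371 ppm in exosomes and 8162, 12415, 10529 and 12158 in cells, and RpL26 had 13905, 13084, 4677 and 8776 ppm in exosomes and 9436, 13768, 4413 and 7999 in cells. For these 3 genes exosome replicate 3 was the lowest exosome library. RpL35, on X, had 10651, 4271 and 9725 ppm in exosome replicates 2 to 4 and 6024, 10411, 7955 and 10090 in cells. RpL17, on X, had 8452, 2257 and 5219 ppm in exosome replicates 2 to 4 and 8122, 8663, 2732 and 6327 in cells.

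RpL40 is made as a fusion with ubiquitin that is later cut off, and it had 11683, 8667, 4857 and 5969 ppm in exosomes and 9029, 7828, 7340 and 4912 in cells. RpL32, widely used in flies as a reference gene for quantitative PCR, had 13488, 7500 and 15927 ppm in exosome replicates 2 to 4 and 13183, 15097, 9583 and 15653 in cells. Its values overlapped between groups, and its mean in ppm was 12305 ± 4336 (SD, n = 3) for exosomes and 13379 ± 2743 (SD, n = 4) for cells.

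Relative to the median member of its library, each exosome library resembled the cell library with the same number most. Over 32 members, Spearman's rho of these profiles was 0.70, 0.90, 0.92 and 0.82 for the pairs numbered 1, 2, 3 and 4, and none of the other cell libraries came higher for any exosome library. The next highest rho was 0.50, 0.82, 0.40 and 0.79 for exosome replicates 1 to 4. For exosome replicate 4 the lead over cell replicate 2 was thus small. The pair numbered 3 stood apart most clearly, since exosome replicate 3 gave rho of 0.34 to 0.40 with cell replicates 1, 2 and 4. Cell replicates 2 and 4 resembled each other at 0.94, so likeness across numbers also occurred. Libraries with 1 number may share cells, handling or processing, and the part of these in the likeness was not tested.

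**Figure D4:**
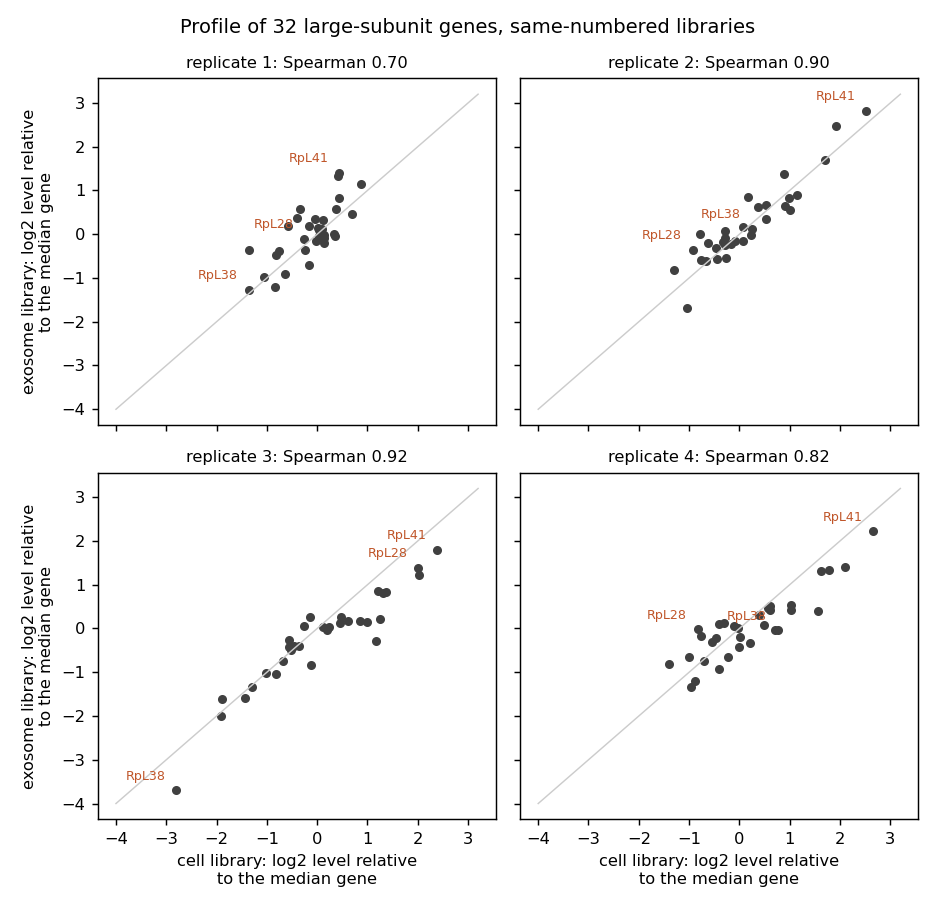
Log2 level of 32 large-subunit genes relative to the median gene of each library, exosome library (vertical) against cell library (horizontal) of the same number, with the line of equal values. Spearman's rho is 0.70, 0.90, 0.92 and 0.82. RpL38 lies far below and RpL28 far above the median in the 2 libraries numbered 3.

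In both libraries numbered 3, 9 of the 32 members lay below their relative level in all 6 other libraries and 3 lay above it. On the same scale, 1.07% of the 3284 tested genes of 2L, 2R and 3L that exosome replicate 1 lists lay below and 45.9% above. That scale is set to the median member of each library. The members' share on these arms was lowest in the same 2 libraries, at 15.6 and 25.5%, so other genes tend to lie higher there. These percentages therefore cannot serve as a background for the counts of members. The 9 were RpL38, RpL10, RpL30, RpL10Ab, RpL11, RpL8, RpL27A, RpL5 and RpLP2, and the 3 were RpL28, RpL12 and RpL40. RpL38, which in mouse is needed for normal translation of Hox mRNAs, had 5412, 8943, 344 and 9743 ppm in exosomes and 3559, 11340, 763 and 13547 in cells. Its relative level was -3.70 and -2.80 on the log2 scale in exosome and cell replicate 3, against -1.36 to 0.77 in the other 6 libraries. RpL30, which in yeast represses splicing of its own transcript, had 10072, 10427, 1454 and 9820 ppm in exosomes and 7706, 13732, 1429 and 12973 in cells. RpL28 went the other way, with 12059, 6387, 11617 and 9884 ppm in exosomes and 7691, 5029, 21413 and 4475 in cells, and relative levels of 1.38 and 2.01 in replicate 3 against -0.93 to -0.02 elsewhere. The list of genes was read from these values, so it is a description of 2 libraries and carries no test.

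The difference between exosome and cell libraries was tested gene by gene. Over the 5868 genes that exceeded an FPKM of 1 in 4 or more libraries, limma's moderated test on log2(FPKM + 1) called 0 genes at an adjusted p under 0.05, which is 0% of those tested. At an unadjusted p under 0.05, 5 genes were higher and 271 lower in exosomes. That split was not stable, with 206 higher and 156 lower after quantile normalization, and with 59 (without cell replicate 2) to 1200 (without cell replicate 4) lower when 1 library was left out. Of the members 48 were tested, all except RpL37b, and 0 were called (limma, adjusted p of 0.708 to 0.998), with 0 at an unadjusted p under 0.05. With a pseudocount of 0.1 the members past an unadjusted p of 0.05 numbered 9, and without cell replicate 4 they numbered 6. All tested genes had a median log2 difference of -1.01, and the 48 members one of 0.26. The median of all genes moved with the pseudocount, at -1.69 with 0.1 and -0.42 with 10. That of the members stayed at 0.26. Genes above 0 numbered 4675, 3145, 6823 and 7188 in exosome replicates 1 to 4. In cell replicates 1 to 4 they numbered 9735, 8149, 7207 and 7042. Members were not compared with genes of like level, so the gap between the medians does not show that exosomes favour the members.

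The fitted differences fell into 2 sets by the value in exosome replicate 1. The 16 tested members at 0 there had log2 differences from -3.64 (RpL13A) to -2.14 (RpL22), below the median of all genes, and the other 32 had 0.01 (RpL23) to 0.93 (RpL18), above it. Standard errors were 1.74 to 2.21. With the zeros of exosome replicate 1 taken as missing, the same 16 members had -1.19 to -0.11 (limma, lowest adjusted p over the members of 0.993). Without exosome replicate 1, the median over the 48 members was -0.52 and that of all genes -0.96, and 0 genes were called, so the sign of the members' median rests on that library. It also turned negative without cell replicate 3 (-0.41) or 4 (-0.50) and with both libraries numbered 1 left out (-0.03). The members' median was above that of all genes in each of these fits. Quantile normalization changed that order, with -0.03 for the members and 0.11 for all genes.

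**Figure D5:**
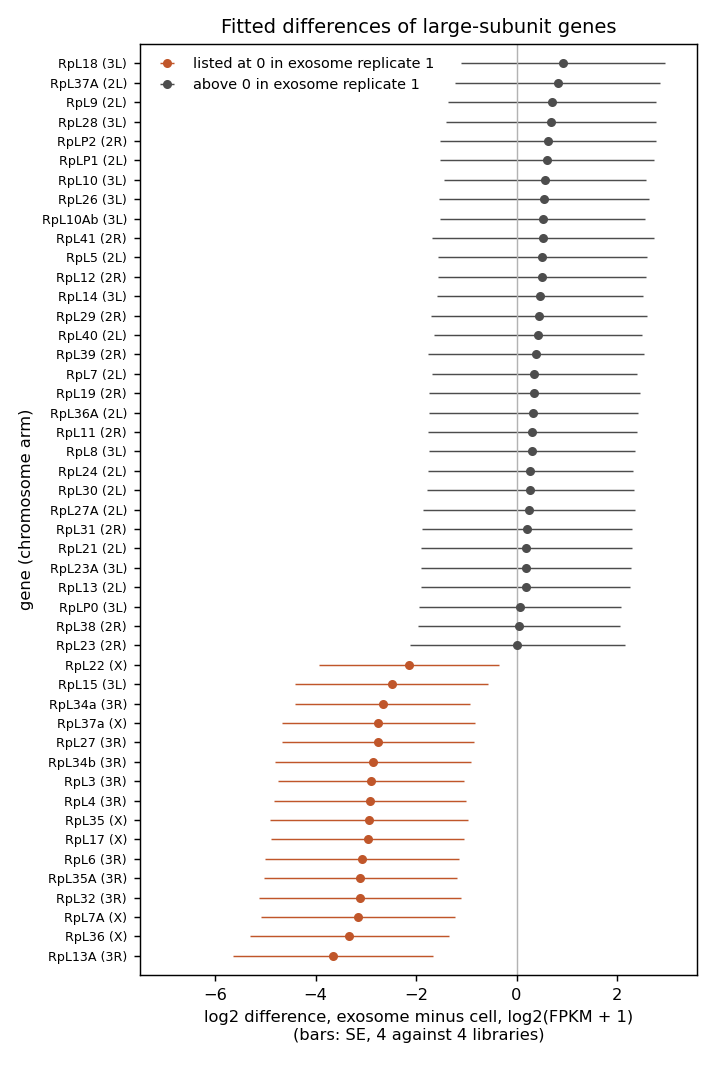
Fitted log2 difference on the log2(FPKM + 1) scale, exosome minus cell, of 47 tested large-subunit genes, with SE from limma over 4 against 4 libraries. The 16 genes listed at 0 in exosome replicate 1 lie at -3.64 to -2.14 and the other 31 at 0.01 to 0.93.

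On the arms that exosome replicate 1 covers, with values in ppm, spread was smaller and the members lay around 0. In that fit of 3414 genes, chosen after the data were seen, the 33 members had a median log2 difference of 0.02 against -1.19 for all genes, and 0 members were called (limma, adjusted p of 0.556 to 0.993). Here too the members were not compared with genes of like level. Apart from RpL15, at -2.92 through its 0, members ranged from -0.36 (RpL23) to 0.56 (RpL18). RpL18 had 14777, 4659, 3167 and 5738 ppm in exosomes and 6106, 3872, 3734 and 3027 in cells. The high value was exosome replicate 1, and the groups overlapped (log2 difference 0.56, SE 0.54, limma adjusted p = 0.618). RpL23, a core protein at the face that meets the small subunit, had 16597, 15388, 10491 and 13254 ppm in exosomes and 8921, 21050, 21706 and 23657 in cells (log2 difference -0.36, SE 0.49, limma adjusted p = 0.719). Cell replicate 1 alone was below the exosome values. An adjusted p above the threshold does not show that levels were equal.

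By percentile rank over all genes, 0 of 48 members had all 4 exosome libraries above or below all 4 cell libraries, where 1.50% of all tested genes lay wholly above and 2.45% wholly below. By rank on 2L, 2R and 3L the count was 0 of 33 members, against 1.32% of genes above and 3.05% below. For the 15 members on 3R and X, levels in ppm in exosome replicates 2 to 4 were set against the 4 cell libraries. There 0 members lay above, against 1.08% of genes on these arms, and 2 lay below, RpL13A and RpL36, against 5.14% of genes. RpL13A, which in human cells is released from the ribosome to silence inflammatory mRNAs, had 8169, 6648 and 8653 ppm in exosome replicates 2 to 4 and 15997, 15170, 12783 and 12273 in cells, a ratio of means of 0.557. RpL36 had 7816, 8228 and 8317 ppm in exosomes and 10789, 10362, 14938 and 10720 in cells, a ratio of 0.694. Both are separate on this scale, whose sum in exosome replicate 3 was 28.1% Arc1 and 3.49% Dro. With Arc1 and Dro left out of the sum, RpL36 in exosome replicate 3 would pass cell replicates 1, 2 and 4. Only RpL13A would then stay separate. Neither gene was called by limma in the fit of all 8 libraries (log2 difference -3.64, SE 1.99 and -3.33, SE 1.98, adjusted p = 0.708 for both) or with the zeros as missing (-1.19, SE 1.89 and -0.85, SE 1.88, adjusted p = 0.993 for both). Those fits ran on FPKM, which is not on 1 scale across libraries. No fit in ppm of the 2L, 2R and 3L sum covered 3R and X, so limma does not decide about these genes. Ranks separated neither of them without exosome replicate 1.

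Of the 49 members, 44 had a ratio of exosome to cell mean level within 1.5-fold in either direction. No share over other genes is given beside this count, so it does not set the members apart. Such a ratio does not show equal levels, since spread was often wide, as for RpL10Ab with 8168 ± 6326 ppm (SD, n = 4) in exosomes. Leaving aside RpL37b, ratios ran from 0.557 (RpL13A) to 1.69 (RpL18), with exosome replicate 1 in the mean only for the 32 members it lists. Without that library for every member, 45 of 48 lay within 1.5-fold, RpL18 had a ratio of 1.08 and the highest was 1.27 (RpL37A). Those outside were all lower in exosomes, RpL13A (0.557), RpL3 (0.592) and RpLP0 (0.598), and most of the 48 ratios were below 1. RpL37A had a ratio of 1.51, with 10068, 8309, 2490 and 6410 ppm in exosomes and 3570, 5570, 4882 and 3992 in cells, where exosome replicate 3 lay below all cell libraries and the other 3 exosome libraries above them. By mean percentile rank over all genes, the largest positive differences, exosome minus cell, were those of RpL18, RpL28, RpL10, RpL37A and RpL9, at 0.096 to 0.148 percentile points. The most negative ones, at -16.8 to -16.7 points for RpL13A, RpL34a, RpL36, RpL7A and RpL6, were set by the 0 in exosome replicate 1. Without that library differences ran from -0.54 (RpL38) to 0.26 (RpL22), and RpL13A stood at -0.17, again leaving RpL37b aside.

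Several members have a paralog, and the choice between copies was measured as the share of the pair's summed FPKM. The 7 pairs gave two-sided exact permutation p of 0.4 to 1, adjusted over the pairs 0.9 to 1. With 4 libraries a group the smallest possible p is 0.0286 before adjustment, so the test has little reach here, and it is void for a paralog at 0 throughout. Reads of near-identical copies may have been split by the authors' counting, so these shares are uncertain.

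RpL22, an RNA-binding protein, has in flies a testis-rich paralog, RpL22-like. RpL22-like was at 0 FPKM in 6 of 8 libraries, with 0.511 FPKM in exosome replicate 4 and 0.0669 in cell replicate 1, against 502 and 2260 FPKM of RpL22 in the same libraries. RpL22 itself had 2503, 795 and 2708 ppm in exosome replicates 2 to 4 and 5217, 1217, 870 and 1195 in cells. Cell replicate 1 was the highest and 2 of the 3 exosome values exceeded the other cell values. RpL10Ab, the L1-stalk protein, had 16742, 6911, 1493 and 7528 ppm in exosomes and 6976, 7863, 1977 and 7927 in cells, and its paralog RpL10Aa was listed at 0 in all 8 libraries.

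RpL37b had a value only in cell replicate 2, 17.6 FPKM, which was 0.476% of its pair, while RpL37a had 5084, 3658 and 7222 ppm in exosome replicates 2 to 4 and 5997, 5720, 4629 and 5698 in cells. S2 cells and their exosomes thus listed almost only RpL37a of this pair, as for RpL22 and RpL10Ab. The RpL34 pair on 3R was used more evenly. RpL34a made up 6.80, 7.87 and 21.9% of the pair in exosome replicates 2 to 4 and 21.9, 17.2, 6.44 and 20.5% in cells (two-sided exact permutation test, p = 0.514, n = 3 and 4). RpL34b, the major copy, had 7793, 6212 and 6777 ppm in exosomes and 5303, 8062, 10876 and 6340 in cells.

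The 3 other paralogs resemble assembly factors more than ribosomal proteins: in yeast their counterparts act in the making of the subunit. RpL7-like made up 3.64, 1.35, 15.5 and 8.26% of its pair with RpL7 in the exosome libraries and 5.08, 4.17, 21.8 and 6.51% in cells (exact permutation p = 0.657), highest in both libraries numbered 3, where RpL7 was lowest at 2165 and 3019 ppm. RpL24-like, on 3R, made up 13.4, 6.94 and 12.5% of its pair in exosome replicates 2 to 4 and 7.37, 13.4, 12.4 and 11.2% in cells (exact permutation p = 0.857 over these libraries, and 0.514 with its 0 in exosome replicate 1). RpLP0-like made up 0.474, 5.65, 5.40 and 2.43% of its pair in the exosome libraries, compared with 1.79, 2.02, 4.17 and 0.974% in cells (exact permutation p = 0.4). The groups overlapped for all 3.

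Other genes of ribosome production gave no calls either. Of the small-subunit proteins 33 of 36 were tested and 0 called by limma, with a median log2 difference of -2.41 over all arms, where 21 of the 36 were at 0 in exosome replicate 1, and of 0.10 on 2L, 2R and 3L in ppm, where 12 of 15 were above 0. Of the mitochondrial large-subunit proteins, which serve the separate ribosome of mitochondria, 44 were tested and 0 called, with 2 lower at an unadjusted p under 0.05 and a median of -1.15 on the same arms. Of the factors for assembly of the subunit and synthesis of its RNA, 32 were tested and 0 called, with a median of -0.46 there. All tested genes had a median of -1.19 in that fit.

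Which transcript of a member carried the FPKM changed from library to library. Of the 24 members with more than 1 transcript in the table, 10 had the same leading transcript in all libraries with a value and 14 had at least 2 different ones. RpL17-RA carried 100% of RpL17 in exosome replicates 2 and 3 and in cell replicates 1 and 4, and RpL17-RB carried 100% in the other 3 libraries with a value. RpL30-RA carried 100% in exosome replicates 1, 2 and 3 and in cell replicates 1 and 4, and RpL30-RB in the others. RpL10-RC carried 100, 0, 10.1 and 0% of RpL10 in exosomes and 100, 58.6, 0 and 59.4% in cells. These switches from 0 to 100% ran across both groups, so levels were read from the sum over transcripts. RpL35-RA, in contrast, had 63.7, 47.3 and 56.9% of its gene in exosome replicates 2 to 4 and 16.4, 60.6, 48.1 and 49.8% in cells.

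The number of fragments behind a member could be estimated in 6 libraries. For the 6 members with a single transcript longer than 500 bases, the values of exosome replicate 2 corresponded to 30.5 to 109.7 fragments with a median of 45.3, a counting error of 14.9%. In exosome replicate 4 the median was 1565 fragments (2.53%) and in cell replicate 2 it was 3476 (1.70%). The differences between libraries of a group, such as those of RpL38, exceeded this counting error, which covers sampling of fragments only.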

How the data were processed

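Polyadenylated RNA of 4 exosome and 4 cell libraries of Drosophila S2 was sequenced after a column extraction for small samples and a directional library kit, per the labels' protocols. TopHat2, Cufflinks and DESeq2 are named, with no version or role, in the submitters' processing notes, as is the build dm3. The deposited values per transcript were taken as FPKM made by the authors, since they are not whole, do not sum to 1 total and Cufflinks writes this unit. The strand setting of the counting is not stated in these sources.

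The 21081 transcripts were summed to 14012 genes by CG identifier, of which 12914 had a current symbol in Release 6. Release 6 served for names, arms and lengths, with no coordinates. Groups came from the titles, and 0 value columns lacked a sample. Genes that exceeded an FPKM of 1 in 4 or more libraries were tested with limma 3.58.1 (R 4.3.3), with a trend, on log2(FPKM + 1), all 8 libraries, no block, Benjamini-Hochberg adjustment at 0.05. A pseudocount of 1 understates changes of low genes. Paralog shares were compared by exact permutation over libraries. Levels in ppm are FPKM in parts per 1000000 of its sum over 2L, 2R and 3L. Depth was estimated as the scale at which low values of single-transcript genes lay within 0.15 of whole fragments (55.1 to 87.7% of them in 6 libraries, 33.6 and 35.0% in the 2 numbered 1, 30% if evenly spread). The limma script was tested on simulated data. Its reach at the standard errors of the members, 1.74 to 2.21, is not reported here.

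The members, lists and tests were chosen with earlier results of these data known. Genes named with values were the paralogs, members chosen by role, the 5 highest and lowest, and the 5 most positive and most negative differences of percentile rank. Members singled out for their levels in the libraries numbered 3, RpL13A and RpL36 as separate groups, and the transcripts named were chosen after their values were seen, as were the extremes by level in ppm. Alternatives covered the pseudocount, filters, scaling, the replicate block, missing zeros, libraries left out, transcripts and membership. Values without exosome replicate 1 for every member were added after the data were seen. The transposon table was not used here. The counts include 1 member that is not reported here by its values.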

Additional observations from a re-analysis of the deposited data

Results flagged for a closer look

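In 97 groups of 4 libraries examined, 8 had 1 library far from the other 3, where chance flags about 1 in 20 of independent groups. These groups share the same 8 libraries and are not independent, so that rate is only a guide. Of these 7 lay in cells and 1 in exosomes. Members with no value from exosome replicate 1 gave no exosome group of 4, so these counts have different bases. In exosomes, RpL30 stood at 1454 ppm in replicate 3 and at 9820 to 10427 in the other replicates. In cell replicate 1, RpL12 was low at 5428 ppm (7664 to 8101 in the others) and RpL22 was high at 5217 (870 to 1217). In cell replicate 3, RpL10Ab was low at 1977 ppm (6976 to 7927 in the others) and RpL36 was high at 14938 (10362 to 10789). Among paralog shares, RpL7-like reached 21.8% of its pair in cell replicate 3 (4.17 to 6.51% in the others). RpL37b had 0.476% in cell replicate 2 and RpL22-like 0.00296% in cell replicate 1, each against 0 in the other cell libraries. A single value among zeros is always flagged. RpL30 and RpL10Ab are also among the genes that were low in both libraries numbered 3. Beside the values of cell replicate 1 stands its unknown depth.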

How the results depend on the processing

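No member was called by limma under any of the 21 alternatives. The number of genes called, 0, became 1 without cell replicate 4, so leaving out 1 library gave 0 to 1. The members' median relative to all genes stayed above 0, also with RpL10Ab left out, except after quantile normalization (-0.14). Members not overlapping by percentile rank, 0 in the full set, numbered 0 to 4 of 48 when 1 library was left out (4.75 to 11.6% of all tested genes at these settings), 1 with both libraries numbered 1 left out (10.6%) and 6 with both numbered 3 left out (14.9%). The share of all arms differed by 4.75 points, and by -1.96 to 9.88 with 1 library left out. RpL23, at 0.01, turned to -0.040 in ppm of all genes, -0.14 after quantile normalization, -0.36 on 2L, 2R and 3L in ppm, -0.61 with both libraries numbered 1 left out, and ran from -0.79 to 0.80 with 1 library left out, negative without exosome replicate 1 or 2 or cell replicate 3 or 4. RpL18 ran from -0.23 (without exosome replicate 1) to 1.89, and RpL22 0.86 with both libraries numbered 1 left out. The share difference of RpL7-like ran from -4.98 to 1.95 points, the latter without cell replicate 3 (exact permutation p = 0.714), and that of RpL22-like from -0.00074 (without exosome replicate 4) to 0.050. The cause was not tested.

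Same-numbered libraries deviated together with r of 0.233, 0.191, 0.452 and -0.0676 over all tested genes, and exosome replicate 4 went best with cell replicate 2 (0.413), so the numbers were not taken as pairs. These r were on log2(FPKM + 1) and included 2482 genes at 0 in exosome replicate 1. The member profiles, free of those zeros, went best with the same number each time, so whether the libraries pair is not settled. With the replicate block, limma called 0 genes (5 higher and 163 lower unadjusted) and 0 members (2 unadjusted, lowest adjusted p = 0.816), and paralog shares gave exact p of 0.375 to 1. An exact test within numbers has fewer splits than the unpaired test, so its reach is smaller still. The fits on 2L, 2R and 3L, those without both libraries numbered 3 and the share without Arc1 and Dro were added after the data were seen. Among the 6 libraries with an estimate, depth limits exosome replicate 2 most.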
